A study of Homo sapiens with 12 samples.

Results

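ARID1A was silenced with small interfering RNA in A549 cells (siARID1A), and 3 such RNA sequencing libraries were compared with 3 libraries of unmodified A549 cells (WT). These were 6 of the study's 12 libraries, taken by the genotype that the labels give, and every gene that passed a filter on low counts was examined, 18524 of the 60617 genes in the deposited table. A549 is a human lung adenocarcinoma line that lacks working SMARCA4, KEAP1 and CDKN2A. The remaining 6 libraries came from A549 cells in which YTHDF1, a reader of N6-methyladenosine in RNA, was knocked out (YTHDF1 KO, 3 libraries), and from such cells with ARID1A siRNA added (the combined group, 3 libraries). They show the same silencing in libraries that the comparison of siARID1A with WT does not contain. No label names a control siRNA or a time after transfection. Delivery or other effects of the siRNA and the loss of ARID1A therefore cannot be told apart in siARID1A against WT. The same holds for the combined group against YTHDF1 KO. The genotype field calls the YTHDF1 cells a knockout and the sample titles a knockdown, and no label says whether they were a clone or a pool. The titles number the libraries of each group as biological replicates 1 to 3 without saying whether they were separate cultures, so p-values measure the spread between these libraries, which may be technical.

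ARID1A is the DNA-binding subunit of the canonical BAF form of SWI/SNF, a family of complexes that use ATP to slide or evict nucleosomes at enhancers and promoters. A BAF complex holds either ARID1A or its paralog ARID1B, with SMARCA4 or SMARCA2 as the motor. The related PBAF and non-canonical BAF forms hold neither ARID1 protein, and ARID1A is among the chromatin regulators most often inactivated in human cancer.

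Library totals ran from 32380546 to 45042635 counts in the 6 libraries. Levels are given as CPM, counts scaled to a common library total with the trimmed mean of M-values, and they compare libraries for a gene, not genes with each other. The second WT library stood apart from the other WT libraries: 4.85% of its counts were mitochondrial, against 7.90% and 8.23%, and results that change without it are named below. Of 13 mitochondrially encoded transcripts 1 rose and 0 fell in siARID1A against WT, and without that library 10 fell. The keratins KRT8, KRT18 and KRT7 of the labelled cell type were abundant, with KRT8 at 5312, 4095 and 4990 CPM in WT and at 3913, 2950 and 3995 CPM in siARID1A. The keratin KRT19 was not, with 4 counts over the WT libraries and 100 over the siARID1A libraries. The lung lineage factor NKX2-1 had 2 counts over the WT libraries and 11 over the siARID1A libraries. The surfactant genes SFTPB and SFTPC had 13 and 5 counts in WT and 5 and 0 in siARID1A. Of 21 markers of blood, endothelial and stromal cells, 5 had no count in WT and 6 had none in siARID1A, and their summed level was 36.1 to 62.9 CPM in WT and 45.2 to 62.8 CPM in siARID1A. Nearly all of that sum came from COL1A1, and from ACTA2 in siARID1A.

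Chromosome 9 stood apart from the rest of the genome in siARID1A against WT. The median log2 fold change of siARID1A over WT, where 1 is a 2-fold rise and -1 a 2-fold fall, was -0.41 over its 712 genes and 0.00 over all other genes, while other autosomes and chromosome X lay between -0.10 (chromosome 16) and 0.11 (chromosome 17). The lower values began near position 76419850: 10 successive windows of up to 50 genes from there to the end of the long arm had medians from -0.38 to -0.71, and the 5 windows before it from -0.19 to 0.05. YTHDF1 KO libraries also lay below WT there, with a median log2 difference of -0.35, whereas the combined group against YTHDF1 KO gave 0.01. On chromosome 2, which holds XRCC5 and PDIA6, the median of YTHDF1 KO over WT was -0.39. There siARID1A against WT and the combined group against YTHDF1 KO both gave 0.01. Each gene on chromosome 9 is marked as such where it is named, and what part of its change the chromosome's shift accounts for was not tested. Some of the genes so marked, among them SMARCA2, CD274 and IFNB1, lie before position 76419850, in the part with medians from -0.19 to 0.05.

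**Figure D1:**
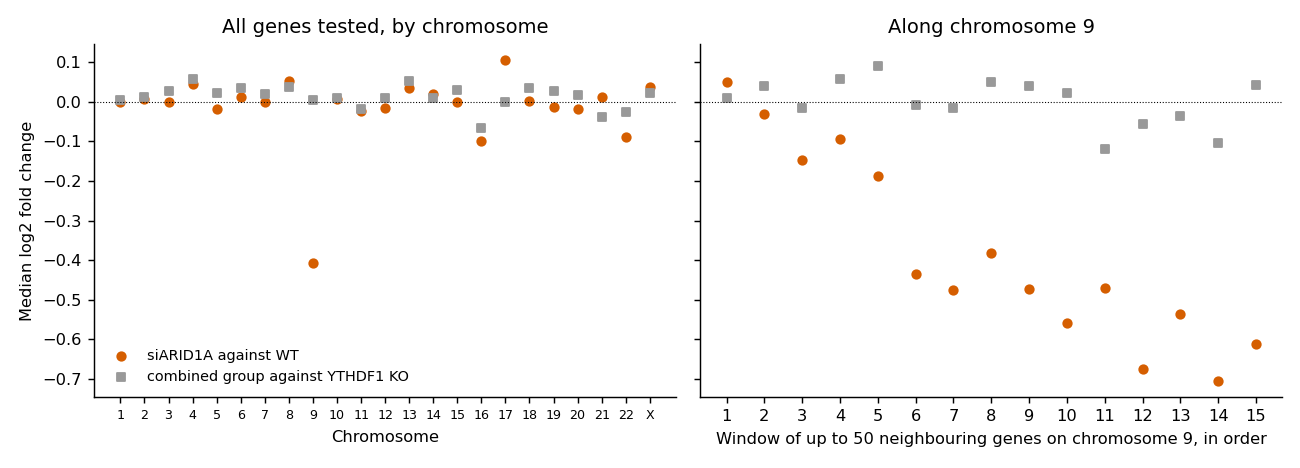
Median log2 fold change of the genes on each chromosome (left) and of windows of up to 50 neighbouring genes along chromosome 9 (right), with circles for siARID1A against WT and squares for the combined group against YTHDF1 KO. The circle of chromosome 9 lies at -0.41 and its square at 0.01, and its windows from the sixth onward lie at or below -0.38.

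The silenced gene was checked first. ARID1A (ENSG00000117713, chr1:26693236-26782110 in GRCh38) stood at 168, 176 and 148 CPM in WT and 44.9, 41.0 and 41.6 CPM in siARID1A, so that 25.9% of the WT level remained (log2 fold change -1.95, SE 0.08, adjusted p = 1.03e-14; the standard error, SE, comes from the spread of log2 CPM between libraries, and the test is edgeR's quasi-likelihood test with Benjamini-Hochberg adjustment, as for every adjusted p below). All siARID1A libraries lay far below all WT libraries. ARID1A also fell in the combined group, from 174, 154 and 154 CPM to 46.7, 58.3 and 57.6 CPM (log2 fold change -1.56, SE 0.12, adjusted p = 1.70e-12). YTHDF1, the target of the knockout, was at 88.3, 90.7 and 85.6 CPM in WT and 98.4, 102.3 and 93.0 CPM in siARID1A and did not pass the test (log2 fold change 0.15, SE 0.05, adjusted p = 0.0925), though without the second WT library it did (0.19, adjusted p = 0.0464).

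The paralog ARID1B, the alternative BAF subunit, did not rise but fell, from 86.6, 89.3 and 83.7 CPM to 71.5, 65.2 and 63.4 CPM (log2 fold change -0.38, SE 0.06, adjusted p = 3.14e-04). In the YTHDF1 KO cells ARID1B had a log2 fold change of -0.09 (adjusted p = 0.483), and the difference between the backgrounds had an adjusted p of 0.0709. SMARCA4, the motor whose protein A549 lacks, rose from 32.1, 29.1 and 21.9 CPM to 37.1, 41.9 and 38.5 CPM (log2 fold change 0.49, SE 0.17, adjusted p = 7.89e-04), while SMARCA2 on chromosome 9, the alternative motor, fell by 0.21 (adjusted p = 0.0335), a call lost in 10 of 19 alternative settings. Of the 15 tested subunits shared by the SWI/SNF forms, 1 rose and 7 fell, against 22.1% of all tested genes that rose and 23.0% that fell. Among PBAF subunits, PBRM1 fell by 0.60 and PHF10 fell by 0.53, and ARID2 (-0.09, adjusted p = 0.416) and BRD7 (-0.01, adjusted p = 0.962) did not pass the test. DPF2, a BAF subunit that reads acetylated histones, rose by 0.41 (adjusted p = 6.14e-05). Of 4 tested genes that other work has tied to ARID1A, PIK3IP1 rose from 0.5998, 0.973 and 0.377 CPM to 2.99, 2.82 and 1.15 CPM, and TERT (-0.17; without the third WT library, -0.36 and past the threshold), HDAC6 (0.06) and SLC7A11 (0.12), a cystine transporter, did not pass.

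**Figure D2:**
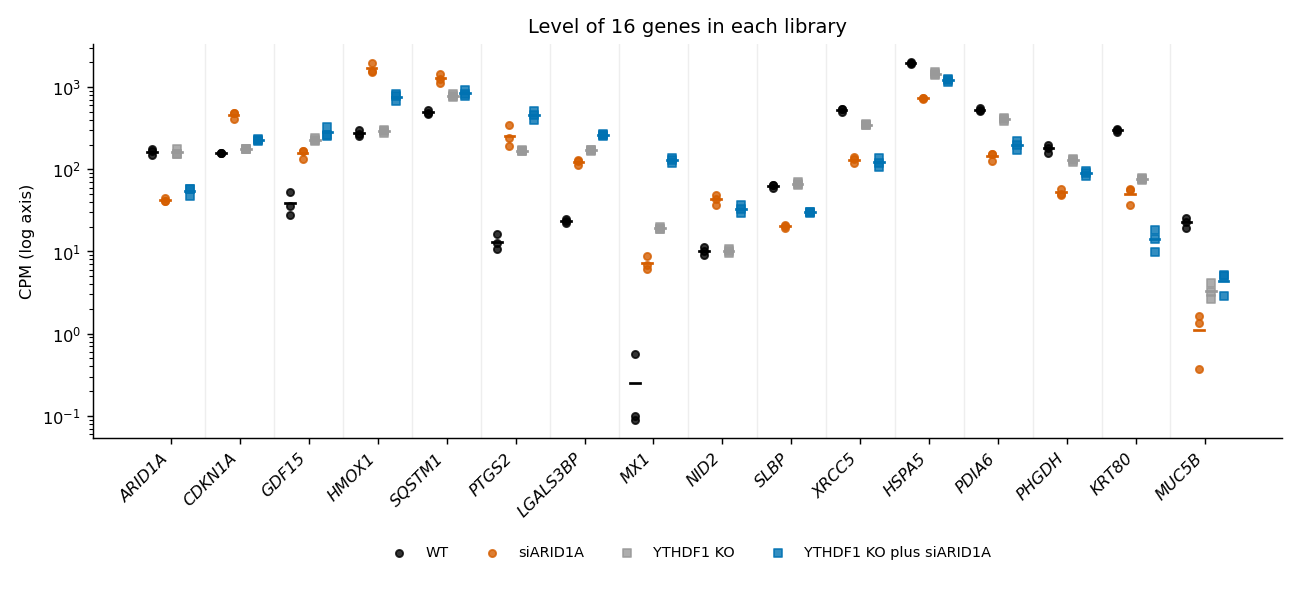
CPM of 16 genes in each library on a log axis, with circles for WT and siARID1A, squares for YTHDF1 KO and the combined group, and a line at each group's mean. ARID1A lies lower in both groups given siRNA, and HSPA5 and CDKN1A differ much more between siARID1A and WT than between the combined group and YTHDF1 KO.

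At an adjusted p below 0.05, 4100 genes rose (22.1%) and 4268 fell (23.0%), with a median log2 fold change of -0.01 over all genes tested. Large changes ran mostly upward: 1517 genes rose by more than 1 on the log2 scale (8.19%), and 686 fell by more than 1 (3.7%). The libraries of the 2 groups did not overlap for 9298 genes (50.2%). In bulk RNA, fewer cells of a kind and less RNA per cell cannot be told apart for any of these genes. Without the second WT library, 4080 genes rose and 3839 fell, and 89.7% of the rises and 83.8% of the falls were called again. Protein-coding genes were called more often than others, with 3601 of 14048 higher (25.6%) and 3732 lower (26.6%).

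Among genes that averaged 10 CPM or more in these 6 libraries and whose groups did not overlap, the largest rise was that of PTGS2, which makes cyclooxygenase-2, the inducible enzyme of prostaglandin synthesis. It stood at 10.7, 12.5 and 16.4 CPM in WT and 237, 191 and 344 CPM in siARID1A (log2 fold change 4.30, SE 0.31, adjusted p = 9.38e-08). Every siARID1A library exceeded every WT library by more than 10-fold. FGFBP1, a carrier that releases fibroblast growth factors from the matrix, rose from 2.85, 1.504 and 3.52 CPM to 38.1, 51.3 and 44.7 CPM (log2 fold change 4.13, SE 0.38, adjusted p = 4.33e-09). The muscle genes MYPN (3.62), ANKRD1 (3.58) and ACTA2, which encodes smooth muscle actin, were among the 15 largest rises. ACTA2 went from 3.324, 3.63 and 3.20 CPM to 20.1, 22.9 and 23.2 CPM. So were XDH (3.04), the xanthine oxidoreductase of purine breakdown, FA2H (3.22), a fatty acid hydroxylase, UPK1B (3.005), a urothelial plaque protein and CEACAM6 (2.80), a cell surface adhesion protein. In the YTHDF1 KO background ANKRD1 (0.05), UPK1B (0.09) and CEACAM6 (0.21) did not pass. CEACAM6 had 303 counts over WT but 14 over YTHDF1 KO and 16 over the combined group. Its change in that background is therefore imprecise. PTGS2 (1.46), FGFBP1 (1.17), MYPN (0.73), ACTA2 (0.998), XDH (0.89) and FA2H (0.71) rose there. FGFBP1, MYPN and FA2H averaged 13.3, 10.8 and 43.2 CPM in YTHDF1 KO without siRNA, against 2.62, 2.11 and 14.8 CPM in WT.

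By the same rule the largest fall was that of FER1L6, a ferlin family member, from 81.7, 83.1 and 87.1 CPM to 0.302, 0.188 and 0.325 CPM (log2 fold change -8.25, SE 0.20, adjusted p = 1.62e-20). It was as low in YTHDF1 KO, at 0.105, 0.194 and 0.281 CPM, and TENM2, an adhesion receptor, was at 35.6, 34.6 and 32.3 CPM in WT and 0.272, 0.219 and 0.325 CPM in siARID1A and at 0.785, 0.508 and 1.01 CPM in YTHDF1 KO. For both genes the combined group was under 1 CPM too, so that the WT libraries alone of the 4 groups held a high level. The labels do not say whether all groups came from the same A549 culture. Silencing and a difference between cultures therefore cannot be told apart in siARID1A against WT. This holds for every gene, and for the shift of chromosome 9, which lay below WT in both siARID1A and YTHDF1 KO. The neurotrophin receptor NTRK3 fell from 219, 252 and 200.3 CPM to 39.0, 21.8 and 39.4 CPM (log2 fold change -2.74, SE 0.30, adjusted p = 3.54e-06) and was at 1.47, 1.89 and 2.08 CPM in YTHDF1 KO. Other large falls were those of KRT80 (-2.58), a keratin, COL5A1 on chromosome 9 (-2.28), a fibrillar collagen, ADAM12 (-2.24), a metalloprotease, IL11 (-2.11), a cytokine of fibrosis, and BCAT1 (-2.06), the cytosolic branched-chain aminotransferase. COL5A1, ADAM12 and IL11 averaged 85.4, 10.2 and 22.55 CPM in YTHDF1 KO without siRNA, against 312, 42.8 and 55.5 CPM in WT. KRT80 also fell in the YTHDF1 KO background, from 76.2, 74.3 and 78.3 CPM to 9.95, 18.4 and 14.04 CPM. BCAT1 fell there too, from 90.8, 87.2 and 91.0 CPM to 43.8, 46.8 and 47.4 CPM, against 106, 107 and 129.5 CPM and 29.3, 26.6 and 26.3 CPM in WT and siARID1A.

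**Figure D3:**
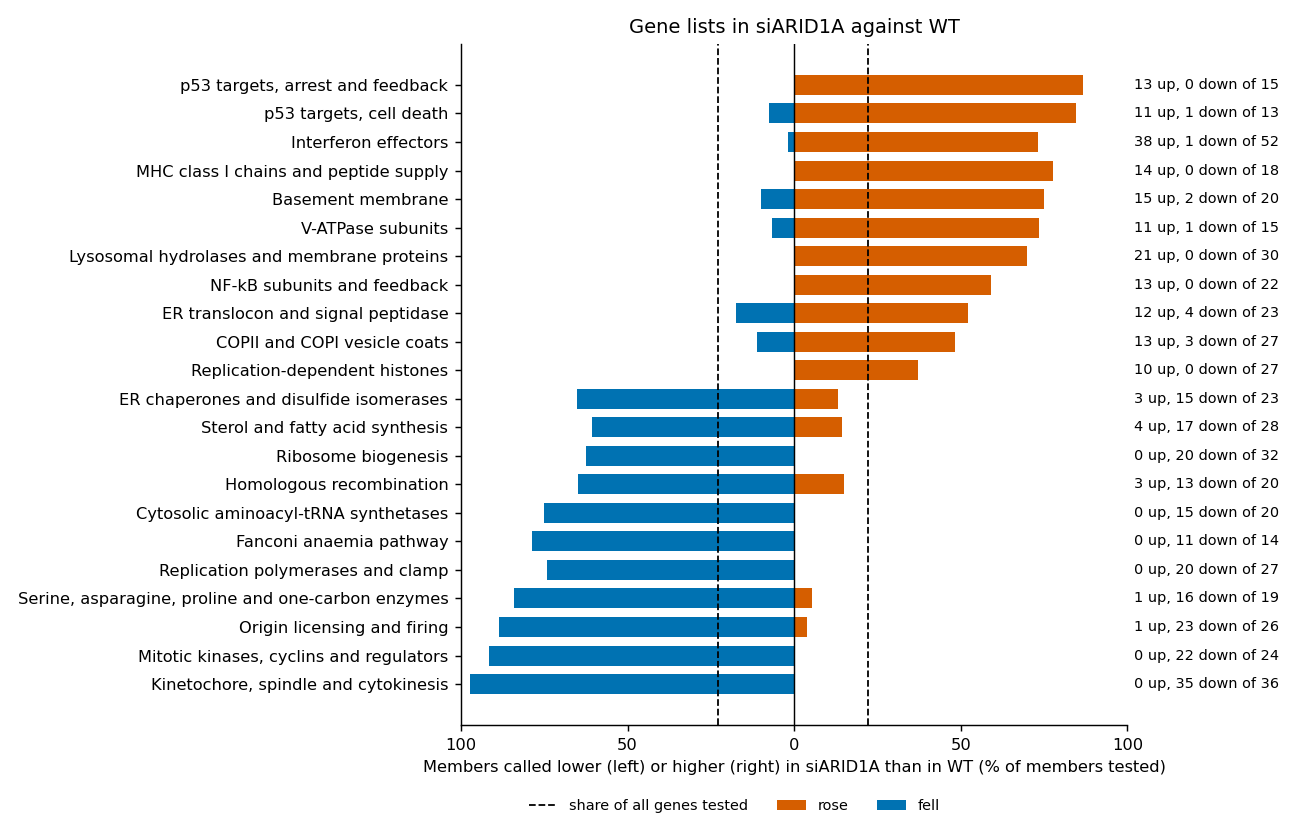
Share of the tested members of 22 gene lists that rose (right) or fell (left) in siARID1A against WT, with the counts beside each bar and dashed lines at the share of all genes tested, 22.1% higher and 23.0% lower. Targets of p53, interferon effectors, MHC class I, basement membrane and lysosomal genes rose, and genes of replication, mitosis, serine synthesis and ER folding fell.

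Genes that p53 activates rose together. Of 15 targets that act in arrest or feedback, 13 rose and 0 fell, with a median log2 fold change of 1.07 against -0.01 over all genes. CDKN1A (chr6:36676460-36687339), which encodes the CDK inhibitor p21, stood at 159, 156 and 159.6 CPM in WT and 409, 482 and 486 CPM in siARID1A (log2 fold change 1.54, SE 0.08, adjusted p = 1.55e-14). The siARID1A libraries were all more than 2-fold above WT. MDM2, the ubiquitin ligase that p53 induces against itself, went from 90.2, 85.8 and 89.9 CPM to 237, 269 and 293 CPM (log2 fold change 1.59, SE 0.09, adjusted p = 1.93e-13). The antiproliferative BTG2 (2.32), TP53INP1 (2.02), the growth arrest gene GADD45A (1.84) and the AKT antagonist PHLDA3 (1.36) rose as well, and E2F7 and SESN2 were the 2 members that did not pass.

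Targets in cell death and metabolism moved the same way. Of 13 cell death targets 11 rose and TNFRSF10D, a decoy receptor, fell by 0.40, with a list median of 0.61. The death receptor FAS went from 14.9, 15.1 and 14.9 CPM to 29.9, 39.95 and 35.9 CPM (log2 fold change 1.24, SE 0.12, adjusted p = 1.97e-09), and BBC3, which encodes the BH3-only protein PUMA, from 8.80, 11.7 and 10.3 CPM to 17.1, 21.5 and 19.2 CPM (log2 fold change 0.91, SE 0.15, adjusted p = 5.20e-07). TP53I3, a quinone oxidoreductase, rose by 1.64 (adjusted p = 4.83e-14). In the list of metabolic and redox targets 8 of 10 rose and FERMT1 fell, with a median of 1.27. FDXR, a mitochondrial reductase, went from 50.4, 41.7 and 38.2 CPM to 169, 179 and 186 CPM (log2 fold change 2.03, SE 0.12, adjusted p = 5.72e-14). GDF15, a stress-induced hormone, went from 35.4, 28.1 and 53.02 CPM to 134, 167 and 167 CPM (log2 fold change 2.01, SE 0.29, adjusted p = 1.55e-05), and TIGAR, a fructose bisphosphatase, rose by 1.32. All siARID1A libraries exceeded all WT libraries for each of FAS, BBC3, FDXR and GDF15. Of 6 targets in DNA repair and nucleotide supply 4 rose, led by POLH (0.90), a translesion polymerase. XPC was at 0.00 (adjusted p = 0.997), and FANCC, on chromosome 9, fell.

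The p53 target response differed between the backgrounds. In the combined group against YTHDF1 KO, 10 of the 15 arrest and feedback targets rose, where 12.5% of all genes rose, with a median of 0.39. CDKN1A went from 175, 176 and 176 CPM to 233, 221 and 225 CPM (log2 fold change 0.36, SE 0.02, adjusted p = 3.53e-04), and the difference between the backgrounds was -1.17 on the log2 scale (adjusted p = 6.80e-09). That difference passed the test, in the direction of a smaller rise in YTHDF1 KO cells, for 10 of the 15 arrest targets, 8 of the 13 cell death targets and 7 of the 10 metabolic targets, where 8.22% of all genes did. GDF15 was already at 226, 241 and 220.4 CPM in YTHDF1 KO.

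Genes of DNA replication fell by moderate amounts. Of 26 genes of origin licensing and firing, 23 fell, with a median of -0.52, and ORC4 rose, a call lost in 14 of 20 alternative settings. The MCM helicase fell as a set: MCM5, its subunit with the largest change, went from 301, 283 and 258 CPM to 168, 142 and 137 CPM (log2 fold change -0.91, SE 0.11, adjusted p = 9.45e-10), MCM4 fell by 0.82 and MCM6 fell by 0.73. None of the siARID1A libraries reached the lowest WT library for these 3 genes. Of 27 genes of the replication polymerases and clamp, 20 fell and 0 rose (median -0.48), among them RFC3, a clamp loader subunit (-0.97), POLA1, the catalytic subunit of polymerase alpha (-0.86), and POLE3 on chromosome 9 (-0.94). Nucleotide supply had 16 of 21 members lower and 0 higher, led by IMPDH1, an enzyme of guanine nucleotide synthesis, which went from 121, 101 and 91.0 CPM to 58.8, 53.05 and 51.3 CPM (log2 fold change -0.94, SE 0.13, adjusted p = 7.20e-09). RRM2, TK1 and TYMS, classical S phase genes of the same list, had log2 fold changes of -0.10, -0.06 and 0.01 and did not pass.

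Upstream of S phase the changes were mixed. Among G1 cyclins, their kinases and the E2F and RB families, 9 of 20 fell and 3 rose. RBL1, the pocket protein p107, went from 42.2, 44.9 and 44.0 CPM to 23.2, 20.1 and 17.8 CPM (log2 fold change -1.10, SE 0.11, adjusted p = 1.34e-09), CCND1, cyclin D1, fell by 0.52 and CCNE1, cyclin E1, rose by 0.60 (adjusted p = 6.11e-06). CCNE1 had a log2 fold change of -0.14 in the YTHDF1 KO background (adjusted p = 0.260), where its level was already 43.8, 45.7 and 48.2 CPM. Of the other CDK inhibitors, CDKN2C fell by 0.63, CDKN2D rose by 0.61, a call lost without the third WT library, and CDKN1B was at 0.18 (adjusted p = 0.140), which passed without the second (0.27, adjusted p = 0.0378).

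Mitotic genes fell as a group. Of 36 kinetochore, spindle and cytokinesis genes 35 fell and 0 rose, with a median of -0.69, and NUSAP1 (-0.53) did not pass. Of 24 mitotic kinases, cyclins and regulators 22 fell and 0 rose, with a median of -0.49. CDC25B, a phosphatase that activates CDK1 at mitotic entry, went from 311, 282 and 291 CPM to 136, 123 and 114 CPM (log2 fold change -1.24, SE 0.08, adjusted p = 3.06e-12). BUB1B, a spindle checkpoint kinase, went from 81.2, 84.8 and 81.8 CPM to 48.4, 41.0 and 39.2 CPM (log2 fold change -0.94, SE 0.09, adjusted p = 1.54e-09), and CENPF, a kinetochore protein, from 304, 315 and 327 CPM to 189, 165 and 152 CPM (log2 fold change -0.91, SE 0.10, adjusted p = 5.41e-09). For all of them the groups were apart. Condensin followed: SMC4 fell by 0.97, NCAPG fell by 0.86, and SMC2 on chromosome 9 fell by 1.42. In the YTHDF1 KO background 16 of the 36 kinetochore genes fell, where 10.9% of all genes fell, with a median of -0.22. The difference between backgrounds passed the test for 19 of the 36, each toward a smaller fall, where 8.87% of all genes did. CDC25B fell in both, with -1.18 in YTHDF1 KO and a difference of 0.07 (adjusted p = 0.744).

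Many mitotic promoters carry the cell cycle genes homology region (CHR), which the DREAM complex binds when p53 and p21 repress them. Promoter windows of 300 bases, from RefSeq on GRCh38.p14, were found for 12342 of the 18524 tested genes (66.6%). The CHR letters TTTGAA were looked for on both strands and occurred in 10.8% of the 17799 windows and in 13.9% of genes. They occurred in 22 of 31 kinetochore genes with a window (71.0%), of which 21 fell, and in 8 of 16 mitotic regulators of which 8 fell. Of all 1717 genes with a match 507 fell and 401 rose, and 35 of the 36 kinetochore genes fell in all. The stretches around the match in PLK1 and CCNB2, with the match in capitals 29 bases before the gene start in both, show what was counted. PLK1, a mitotic kinase, fell by 0.43 and CCNB2, cyclin B2, fell by 0.56. A match is a description of the letters, not a bound site.
PLK1 (chr16:23678840-23678885, plus strand): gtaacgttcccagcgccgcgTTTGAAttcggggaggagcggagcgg
CCNB2 (chr15:59105097-59105142, plus strand): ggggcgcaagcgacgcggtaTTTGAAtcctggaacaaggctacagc

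Repair genes fell with replication genes, and XRCC5 had the largest fall of the 17 end joining genes. XRCC5 (chr2:216107464-216206303) encodes Ku80, which with Ku70 holds broken DNA ends for end joining. It stood at 546, 496 and 544 CPM in WT and 142, 132 and 119.7 CPM in siARID1A, so that 24.8% of the WT level remained (log2 fold change -2.01, SE 0.08, adjusted p = 3.26e-15) against 25.9% for ARID1A. The YTHDF1 KO background gave the same direction, from 344, 350.1 and 356 CPM to 107, 137 and 120 CPM (log2 fold change -1.53, SE 0.10, adjusted p = 1.64e-12). Its partner XRCC6, Ku70, fell by 0.33, and PRKDC, the kinase that Ku recruits, fell by 0.56. In all, 11 of 17 end joining genes fell and SHLD1, of the shieldin complex, rose; with library totals as the scaling, 7 fell.

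In homologous recombination 13 of 20 fell and 3 rose, with BRCA2 going from 28.8, 37.0 and 28.5 CPM to 15.2, 15.6 and 17.1 CPM (log2 fold change -0.98, SE 0.13, adjusted p = 6.71e-08), while BRCA1 (-0.16) and PALB2 (0.10) did not pass. RAD51C, RAD51D and RAD52 were the 3 that rose. Of 14 Fanconi anaemia genes, which act at crosslinks between DNA strands, 11 fell and 0 rose. FANCD2, the subunit that is ubiquitinated, went from 77.5, 80.8 and 74.7 CPM to 46.9, 43.7 and 37.4 CPM (log2 fold change -0.86, SE 0.10, adjusted p = 2.59e-09). Checkpoint signalling had 9 of 14 members lower, among them MDC1 (-0.79), CLSPN (-0.63) and the kinase ATR (-0.36), and CHEK2 higher at 0.23, a call lost in 8 of 20 alternative settings. For BRCA2 and FANCD2 the 2 groups did not overlap, and in the YTHDF1 KO background neither passed the test (BRCA2 -0.07, adjusted p = 0.721; FANCD2 -0.17, adjusted p = 0.115).

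Some replication-dependent histone genes rose while a factor that processes their mRNA fell. SLBP (chr4:1692800-1712555) binds the stem-loop that ends replication-dependent histone mRNAs in place of a poly(A) tail and is needed to process them. It stood at 59.4, 65.1 and 64.9 CPM in WT and 20.8, 20.6 and 19.4 CPM in siARID1A (log2 fold change -1.64, SE 0.05, adjusted p = 1.55e-14) and fell as well in the YTHDF1 KO background, from 64.2, 69.5 and 65.8 CPM to 29.3, 30.01 and 30.2 CPM (log2 fold change -1.16, SE 0.04, adjusted p = 1.79e-11). Each library given siRNA lay under every library without it. ERI1, a nuclease that trims the stem-loop, fell by 0.69, and NPAT, the activator of histone transcription, fell by 0.40. Meanwhile 10 of 27 replication-dependent histone genes rose and 0 fell (median 0.57), and 13 rose in the YTHDF1 KO background. The linker histone H1-2 went from 14.2, 13.1 and 17.7 CPM to 33.9, 34.9 and 41.4 CPM (log2 fold change 1.297, SE 0.16, adjusted p = 2.87e-09), and H4C8 from 3.45, 3.71 and 3.49 CPM to 9.31, 9.43 and 10.4 CPM (log2 fold change 1.45, SE 0.06, adjusted p = 1.06e-08). The share of these histone mRNAs that carried a poly(A) tail was not measured. Of 11 replication-independent histone genes 7 fell, among them CENPA, the centromeric H3 (-0.79), and H2AZ1 (-0.64), and H3-3B rose by 0.68. Near-identical copies make the counts of single histone genes uncertain.

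Folding factors of the endoplasmic reticulum (ER) were among the most abundant transcripts that fell. HSPA5 (chr9:125234853-125241330), which encodes BiP, the main ER chaperone and a repressor of the stress sensors, stood at 1936, 1978 and 2027 CPM in WT and 746, 736 and 724 CPM in siARID1A (log2 fold change -1.43, SE 0.02, adjusted p = 1.03e-13). It is on chromosome 9, and its fall was larger than that chromosome's median of -0.41 and the median of -0.56 of its own window of 50 genes. PDIA6, a disulfide isomerase on chromosome 2, went from 562, 511 and 523 CPM to 154, 152 and 128 CPM (log2 fold change -1.88, SE 0.10, adjusted p = 2.01e-14), and PDIA4 from 779.6, 776 and 766 CPM to 357, 361 and 349 CPM (log2 fold change -1.12, SE 0.02, adjusted p = 4.18e-12). Both kept the groups far apart. HYOU1, an exchange factor of BiP, fell by 1.05, its cochaperone SDF2L1 fell by 1.02 and CRELD2 fell by 1.01. Of 23 ER chaperones and isomerases 15 fell and 3 rose, with a median of -0.57, and without the 2 on chromosome 9 the median was -0.57 and 13 fell. The 3 that rose were DNAJB9 (0.81), PDIA5 (0.37) and P4HB (0.24), and the lectin chaperone CANX was at -0.01.

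In the YTHDF1 KO background 11 of the 23 fell and 1 rose (median -0.17), where 10.9% of all genes fell and 12.5% rose. HSPA5 went from 1387, 1530 and 1452 CPM to 1154, 1266 and 1210 CPM (log2 fold change -0.27, SE 0.06, adjusted p = 0.00770) and differed between backgrounds by 1.16 (adjusted p = 1.38e-08). PDIA6 had the largest fall of the list there too, from 389, 416 and 414 CPM to 171, 219 and 196 CPM (log2 fold change -1.06, SE 0.11, adjusted p = 1.49e-09). The fall was smaller in YTHDF1 KO cells, by the test of the difference, for 14 of the 23, and 2 differed the other way. Over all genes that test passed for 8.87% and 8.22% in these directions.

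Induced ER chaperones share the ER stress response element (ERSE), CCAAT and CCACG with any 9 bases between them, to which NF-Y and ATF6 are known to bind. Looked for on both strands, it occurred in 18 of the 17799 promoter windows (0.101%) and in 16 genes. Of 22 ER chaperone genes with a window 7 held it (31.8%): HSPA5, PDIA6, HSP90B1, CALR, CRELD2, CANX and ERO1B, of which 6 fell. Of the 16 genes with the element 8 fell and 3 rose. Those of 4 members are printed because each of these genes fell by 0.88 or more, with the element in capitals, and in CALR and CRELD2 it lies on the opposite strand and so reads from CGTGG to ATTGG. The gene start lies 66 bases downstream of the element's first base in HSPA5, 86 in PDIA6, 225 in CALR and 80 in CRELD2.
HSPA5 (chr9:125241371-125241429, minus strand): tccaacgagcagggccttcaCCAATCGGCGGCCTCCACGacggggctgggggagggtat
PDIA6 (chr2:10812833-10812891, minus strand): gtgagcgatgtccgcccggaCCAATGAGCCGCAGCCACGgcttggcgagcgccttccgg
CALR (chr19:12938364-12938422, plus strand): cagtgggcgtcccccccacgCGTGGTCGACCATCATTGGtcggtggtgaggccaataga
CRELD2 (chr22:49918534-49918592, plus strand): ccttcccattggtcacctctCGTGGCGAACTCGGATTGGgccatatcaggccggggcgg

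Genes of the steps before and after folding moved in other directions. In the ER translocon and signal peptidase 12 of 23 rose and 4 fell (median 0.20), led by SRP68 of the signal recognition particle, from 152, 136 and 148 CPM to 195, 232 and 201 CPM (log2 fold change 0.53, SE 0.09, adjusted p = 1.15e-06); without the third siARID1A library 7 rose. COPII and COPI coats had 13 of 27 higher and 3 lower (median 0.14). KDELR3, a receptor that returns chaperones to the ER, went from 31.1, 25.7 and 29.7 CPM to 55.4, 54.6 and 65.3 CPM (log2 fold change 1.02, SE 0.12, adjusted p = 7.64e-10), and it rose by 0.79 (adjusted p = 2.08e-07) in the YTHDF1 KO background. Among genes of N-glycan assembly 14 of 29 fell and 2 rose, for example RPN1 (-0.53) and RPN2 (-0.49) of the oligosaccharyltransferase. ER-associated degradation was split, with 6 of 19 higher and 7 lower: the stress sensor ERN1, IRE1, went from 14.8, 14.8 and 17.9 CPM to 30.4, 25.9 and 33.1 CPM (log2 fold change 0.92, SE 0.14, adjusted p = 1.41e-07), while XBP1, the transcript it splices, fell by 0.61 and HERPUD1 fell by 0.70.

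**Figure D4:**
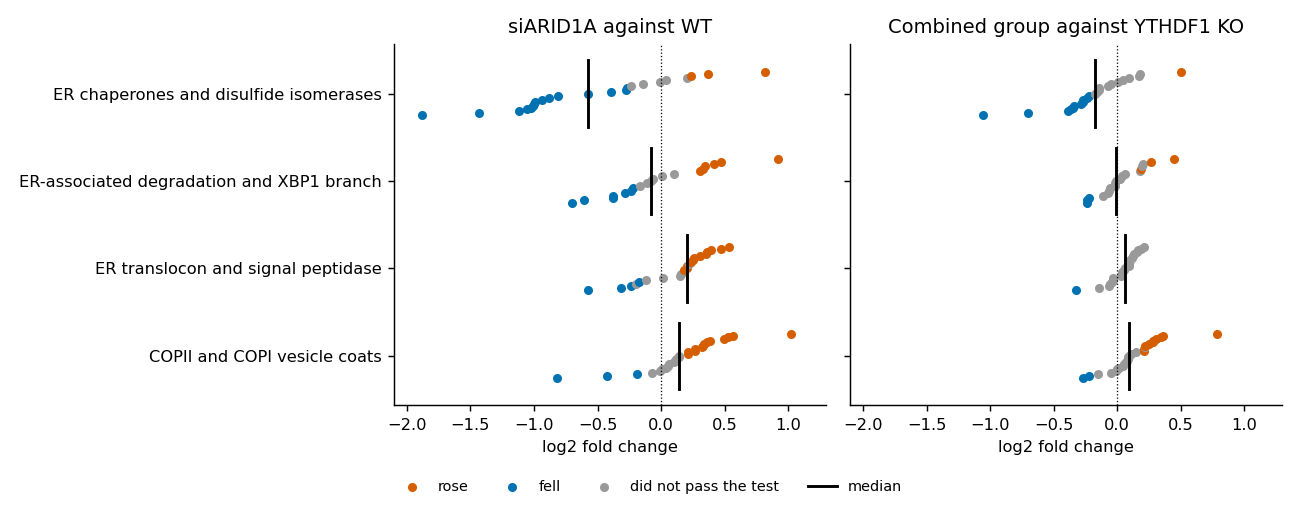
Log2 fold change of each tested member of 4 lists of the secretory pathway in siARID1A against WT (left) and in the combined group against YTHDF1 KO (right), coloured by its call, with a bar at the list's median. The chaperone list lies at -0.57 on the left and -0.17 on the right, and the translocon and coat lists lie at 0.20 and 0.14 on the left.

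Enzymes of amino acid supply fell. Of 19 enzymes of serine, asparagine, proline and one-carbon metabolism 16 fell, with a median of -0.70. PHGDH, the first enzyme of serine synthesis, stood at 180.1, 158 and 199 CPM in WT and 58.1, 49.2 and 49.9 CPM in siARID1A (log2 fold change -1.77, SE 0.12, adjusted p = 4.18e-14). MTHFD2, the mitochondrial folate enzyme, went from 254, 244 and 327 CPM to 87.0, 90.2 and 77.1 CPM (log2 fold change -1.70, SE 0.15, adjusted p = 6.48e-13), and PSAT1 on chromosome 9, the second enzyme of serine synthesis, from 607, 601 and 718 CPM to 178, 179 and 163 CPM (log2 fold change -1.89, SE 0.09, adjusted p = 2.77e-15). For each the highest siARID1A library was below the lowest WT library by more than 2-fold. ASNS, asparagine synthetase, fell by 2.13 from low levels and CBS fell by 1.87. CTH, which follows CBS in cysteine synthesis, was the 1 member that rose, from 3.05, 3.12 and 3.08 CPM to 8.61, 6.71 and 17.1 CPM (log2 fold change 1.81, SE 0.40, adjusted p = 2.80e-04). It rose in the YTHDF1 KO background as well, from 2.36, 2.98 and 2.98 CPM to 28.1, 19.7 and 20.4 CPM (log2 fold change 3.03, SE 0.20, adjusted p = 1.03e-05), where 13 of the 19 enzymes fell (median -0.35).

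Transfer RNA synthetases and amino acid transporters moved with these enzymes. Of 20 cytosolic aminoacyl-tRNA synthetases 15 fell and 0 rose (median -0.43), and 14 fell in the YTHDF1 KO background. AARS1, for alanine, went from 537, 477 and 536 CPM to 347, 317 and 307 CPM (log2 fold change -0.68, SE 0.08, adjusted p = 3.73e-08). WARS1, for tryptophan and also induced by interferon, fell by 0.66 in WT cells and rose by 0.39 in YTHDF1 KO cells (adjusted p = 1.17e-04; adjusted p of the difference 2.41e-08). Of 13 transporters 8 fell, led by SLC1A4 (-1.52) and the glutamine carrier SLC1A5, which went from 430.4, 378 and 436 CPM to 223, 225 and 205 CPM. SLC7A5 fell by 0.24, and its heavy chain SLC3A2 (0.01) did not pass.

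Many of these genes are known targets of ATF4, the transcription factor of the integrated stress response. ATF4 itself stood at 563, 524 and 710.5 CPM in WT and 374, 381 and 351 CPM in siARID1A (log2 fold change -0.70, SE 0.14, adjusted p = 4.44e-07). The third WT library was the highest, as it was for the ATF4 targets CHAC1 (10.3, 9.66 and 35.5 CPM in WT) and STC2 (105, 109.9 and 184 CPM in WT), and every siARID1A library lay below all WT libraries for these 3 genes. STC2, a secreted glycoprotein, fell by 1.98 (adjusted p = 1.15e-05), and CHAC1, which degrades glutathione, fell by 2.02 (adjusted p = 0.0112), a call lost in a fit on the 6 libraries alone (adjusted p = 0.066). PPP1R15A, the phosphatase subunit GADD34 that ends the response, went the other way, from 28.0, 32.0 and 42.9 CPM to 122, 176 and 141 CPM (log2 fold change 2.10, SE 0.24, adjusted p = 8.32e-07). ATF3 rose by 0.77 (adjusted p = 0.00604), and DDIT3 (0.70) and TRIB3 (-0.13) did not pass. The letters TGATGNAAT, a composite element of C/EBP and ATF factors, occurred in the promoter windows of 0.802% of genes, in 0 of 17 stress response regulators, in 1 of 12 of the enzymes (MTHFD1L) and in 2 of 16 synthetases (GARS1 and TARS1).

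Ribosome biogenesis genes fell in both backgrounds. Of 32 genes 20 fell and 0 rose (median -0.29) in siARID1A against WT, and 17 fell (median -0.28) in the combined group against YTHDF1 KO. The difference between backgrounds passed for 1 of the 32. DDX21, a nucleolar helicase, went from 451, 456 and 524 CPM to 249.7, 274 and 221 CPM (log2 fold change -0.94, SE 0.11, adjusted p = 7.72e-10). MYC, which drives these genes, went from 206, 204 and 212 CPM to 137, 154 and 125 CPM (log2 fold change -0.58, SE 0.09, adjusted p = 3.67e-07), with no overlap.

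Lysosome and autophagy genes rose. Of 30 lysosomal hydrolases and membrane proteins 21 rose and 0 fell (median 0.45), led by the protease CTSH, from 6.62, 6.86 and 8.04 CPM to 18.2, 17.4 and 20.4 CPM (log2 fold change 1.39, SE 0.11, adjusted p = 1.87e-09). NPC1, the cholesterol exporter, went from 88.5, 86.9 and 81.6 CPM to 167, 208 and 144 CPM (log2 fold change 1.01, SE 0.16, adjusted p = 1.29e-08). The proton pump that acidifies lysosomes had 11 of 15 subunits higher, and the 1 that fell, ATP6V1G1, is on chromosome 9. Of 29 autophagy genes 16 rose and 2 fell. SQSTM1, the receptor p62, stood at 522, 469 and 490.1 CPM in WT and 1130, 1441 and 1260 CPM in siARID1A (log2 fold change 1.37, SE 0.11, adjusted p = 4.64e-12), and each siARID1A library was far above each WT library. GABARAPL1, an ATG8 family protein, went from 38.3, 35.7 and 36.8 CPM to 112, 106 and 134 CPM (log2 fold change 1.67, SE 0.10, adjusted p = 4.04e-14). Of the regulators, MITF rose by 1.12, TFEB fell by 0.68 and TFE3 (0.05) did not pass. GABARAPL1 rose in the YTHDF1 KO background as well (1.22), whereas SQSTM1 had 0.09 there (adjusted p = 0.483; adjusted p of the difference 4.63e-08).

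HMOX1, haem oxygenase 1, which breaks down haem and is induced by oxidative stress, was raised from an already high level. It stood at 297, 257 and 272 CPM in WT and 1531, 1961 and 1567 CPM in siARID1A (log2 fold change 2.62, SE 0.13, adjusted p = 6.27e-16), without overlap. In the YTHDF1 KO background it went from 276, 301 and 289 CPM to 829.7, 684 and 790.2 CPM (log2 fold change 1.41, SE 0.09, adjusted p = 3.86e-11), and the difference between the backgrounds was -1.20 (adjusted p = 3.27e-07). Other targets of NRF2, the oxidative stress factor that is already active in A549, moved both ways. Of 20, 7 rose (35%) and 4 fell (20%), against 22.1% and 23.0% of all genes tested, with a median of 0.02. TXNRD1, thioredoxin reductase, went from 1830, 1759 and 1841 CPM to 2407, 2524 and 2503 CPM (log2 fold change 0.45, SE 0.03, adjusted p = 1.30e-05), and AKR1C1, an aldo-keto reductase, rose by 0.73. NQO1 (-0.07), GCLM (-0.05) and GSR (-0.10) did not pass, and GCLC, the catalytic subunit of glutathione synthesis, fell by 0.29. In haem and iron handling 5 of 21 rose (23.8%) and 6 fell (28.6%), near the background of all genes tested, and the ferritin chains FTH1 (-0.08) and FTL (0.18) did not pass.

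Interferon-stimulated genes rose from low levels. Of 52 effectors 38 rose, with a median of 1.07, and SAMD9 fell, a call lost in 6 of 20 alternative settings. MX1, a GTPase that blocks viral replication, stood at 0.100, 0.0885 and 0.565 CPM in WT and 6.04, 6.92 and 8.87 CPM in siARID1A (log2 fold change 5.01, SE 0.71, adjusted p = 1.39e-09). IFIT1, which binds foreign RNA ends, went from 1.95, 1.68 and 2.07 CPM to 9.85, 13.5 and 13.4 CPM (log2 fold change 2.697, SE 0.17, adjusted p = 1.49e-14), and IFI6 from 2.95, 3.87 and 3.17 CPM to 17.8, 16.9 and 19.3 CPM (log2 fold change 2.42, SE 0.13, adjusted p = 1.48e-15). All 3 siARID1A libraries were above all 3 WT libraries in each case, and the highest value was 19.3 CPM, for IFI6. LGALS3BP, a secreted glycoprotein, reached higher levels, from 24.6, 23.5 and 22.1 CPM to 127, 129 and 114 CPM (log2 fold change 2.40, SE 0.07, adjusted p = 1.28e-17). MX2 had 0 counts over the WT libraries and 10 over the siARID1A libraries, at least 3.95-fold higher, with a floor of 3 counts over the group. CCL5, an interferon-induced chemokine, had 2 and 24 counts, a ratio of 14.2 (95% interval 3.53 to 124, counting error only).

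IFIT1 and MX1 stood higher in YTHDF1 KO than in WT, both without siRNA. IFIT1 was at 159, 157 and 161 CPM in YTHDF1 KO and at 512, 458 and 492 CPM in the combined group (log2 fold change 1.62, SE 0.05, adjusted p = 8.17e-13), and MX1 at 19.8, 18.7 and 18.8 CPM and 131, 119 and 136 CPM (log2 fold change 2.75, SE 0.06, adjusted p = 1.20e-09). Of the 52 effectors 49 rose and 0 fell in that background (median 1.32), where 12.5% of all genes rose and 10.9% fell. The difference between the backgrounds passed for 26 effectors, 15 toward a larger rise in YTHDF1 KO cells and 11 toward a smaller one. Over all genes it passed for 8.87% and 8.22% in these directions. IFNL1, a type III interferon, had no count in any WT or siARID1A library and was at 3.30, 3.39 and 3.43 CPM in YTHDF1 KO and 10.8, 9.26 and 9.55 CPM in the combined group. IFNB1, on chromosome 9, was also at 0 in all WT and siARID1A libraries. Of 8 interferon genes 5 passed the filter on low counts, which took in all 4 groups. Of these 5, 4 rose in the combined group against YTHDF1 KO, where 12.5% of all genes rose. IFNL1 and IFNB1 could pass that filter only through the YTHDF1 KO and combined groups, so the count was partly fixed by it.

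Receptors and factors of the pathway changed unevenly. The transcription factor IRF7 went from 1.85, 1.28 and 1.57 CPM to 6.89, 5.08 and 5.03 CPM (log2 fold change 1.86, SE 0.21, adjusted p = 8.74e-10), while IRF3 (0.14) did not pass and STAT2 rose by 0.55. Of 25 receptors, JAK-STAT members and interferon regulatory factors 15 rose and 4 fell, the kinases JAK1, TYK2 and, on chromosome 9, JAK2 among the latter, and without the second WT library 2 fell. Of 17 nucleic acid sensors and adaptors 8 rose and TRIM56 fell, and without the second WT library 2 fell. IFIH1, the sensor MDA5 of long double-stranded RNA, went from 2.20, 1.64 and 3.02 CPM to 11.7, 9.90 and 11.7 CPM (log2 fold change 2.31, SE 0.26, adjusted p = 8.15e-12), and TLR3 from 1.12, 2.03 and 1.00 CPM to 3.72, 5.01 and 5.06 CPM. STING1, the adaptor of cytosolic DNA sensing, was at 0.100, 0.486 and 0.440 CPM in WT and 0.967, 1.06 and 1.00 CPM in siARID1A (adjusted p = 0.00129), and CGAS, its sensor, was at 0.100, 0 and 0 CPM in WT and 0.302, 1.00 and 0.473 CPM in siARID1A (adjusted p = 0.00214). Both lay at about 1 CPM or less in all WT and siARID1A libraries.

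Antigen presentation rose with the effectors. Of 18 genes for MHC class I chains and their peptide supply 14 rose and 0 fell (median 0.63), and 16 rose in the YTHDF1 KO background (median 0.80). HLA-B went from 0.625, 1.02 and 1.04 CPM to 2.87, 2.76 and 2.57 CPM (log2 fold change 1.62, SE 0.23, adjusted p = 4.89e-07). PSMB9, a subunit of the immunoproteasome, went from 5.52, 3.76 and 4.46 CPM to 14.7, 19.9 and 16.02 CPM (log2 fold change 1.88, SE 0.20, adjusted p = 7.73e-11), and TAP1, the peptide transporter, rose by 0.96. For all 3 the groups were separate. HLA genes are alike in sequence, and how the counting divided reads among them is not given in the sources used here. Of 13 checkpoint ligands 5 rose (38.5%) and 3 fell (23.1%), against 22.1% and 23.0% of all genes tested. CD274, which encodes PD-L1 on chromosome 9, went from 0.5998, 0.663 and 0.754 CPM to 1.27, 1.69 and 1.15 CPM (log2 fold change 1.03, SE 0.18, adjusted p = 0.00260), and VSIR, which encodes VISTA, from 42.0, 39.3 and 42.0 CPM to 70.8, 74.8 and 71.4 CPM (log2 fold change 0.82, SE 0.04, adjusted p = 2.06e-08).

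The interferon-stimulated response element (ISRE), searched as GAAA and GAAA with any 2 bases between, on both strands, was in 2.96% of all promoter windows and in 3.99% of genes. It was in 30 of 41 interferon effectors with a window (73.2%), of which 21 rose and 1 fell, and in 11 of 15 MHC class I genes (73.3%), of which 9 rose. With or without a match, 38 of the 52 effectors (73.1%) and 14 of the 18 MHC class I genes (77.8%) rose. Of all 493 genes with a match 158 rose and 110 fell. The stretches of IFIT1 and ISG15 are printed because each holds a pair of matches, in capitals, that begin 116 and 103 bases before the gene start in IFIT1 and 113 and 107 before it in ISG15. In ISG15 the matches overlap, and in IFIT1 they lie on the opposite strand and read as TTTC before TTTC. ISG15, a ubiquitin-like modifier, rose by 0.82.
IFIT1 (chr10:89392487-89392549, plus strand): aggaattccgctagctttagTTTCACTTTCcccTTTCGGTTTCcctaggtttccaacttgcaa
ISG15 (chr1:1013364-1013419, plus strand): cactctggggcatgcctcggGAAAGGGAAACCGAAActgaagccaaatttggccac

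Feedback genes of NF-kB, the transcription factor family of inflammation, also rose. Of 22 subunits and feedback genes 13 rose and 0 fell (median 0.68). BIRC3, an inhibitor of apoptosis, went from 34.9, 39.5 and 50.9 CPM to 146, 229.9 and 176 CPM (log2 fold change 2.14, SE 0.25, adjusted p = 2.48e-06). NFKB2, the precursor of p52, went from 79.7, 77.9 and 76.6 CPM to 214, 275 and 219 CPM (log2 fold change 1.597, SE 0.12, adjusted p = 2.36e-13), and TNFAIP3, the inhibitor A20, rose by 1.63. The groups did not overlap for these 3 genes, with the second siARID1A library the highest. RELA (0.01) and NFKB1 (0.02), the subunits of the canonical dimer, did not pass. Of the 22, 7 rose and 1 fell in the YTHDF1 KO background, where 12.5% of all genes rose and 10.9% fell. The difference passed toward a smaller rise for 10 of them (8.22% of all genes) and the other way for 2 (8.87%).

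Of 24 cytokines and chemokines 15 rose and 4 fell, with a median of 0.95. The neutrophil attractants CXCL1 (1.17), CXCL2 (1.08), CXCL3 (1.38) and CXCL5 (1.14) rose, with CXCL1 going from 8.22, 9.95 and 10.3 CPM to 20.4, 20.02 and 23.5 CPM (log2 fold change 1.17, SE 0.12, adjusted p = 3.76e-10), while CXCL8 (0.36) and CCL2 (-0.12) did not pass. IL11 went from 56.4, 63.2 and 47.0 CPM to 14.4, 10.97 and 13.3 CPM (log2 fold change -2.11, SE 0.17, adjusted p = 1.59e-13). Around PTGS2, PTGES on chromosome 9, which makes prostaglandin E2, went from 37.9, 27.8 and 31.2 CPM to 72.8, 68.7 and 69.4 CPM (log2 fold change 1.12, SE 0.13, adjusted p = 2.83e-10) against the fall of that chromosome, and HPGD, which degrades prostaglandins, rose by 0.80. PTGS1 (-3.90) and PTGES2 (-1.298), both also on chromosome 9, fell. In the YTHDF1 KO background PTGS2 went from 165, 166 and 170.3 CPM to 510.1, 402 and 461 CPM (log2 fold change 1.46, SE 0.10, adjusted p = 4.27e-04).

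Several ligands of the EGF receptor family rose. Of 11 members 6 rose and 0 fell: HBEGF went from 5.20, 4.42 and 3.64 CPM to 11.2, 18.1 and 12.6 CPM (log2 fold change 1.65, SE 0.25, adjusted p = 6.36e-08) and AREG from 18.97, 21.6 and 31.2 CPM to 58.0, 76.8 and 66.0 CPM (log2 fold change 1.49, SE 0.24, adjusted p = 2.31e-06), while EGFR (0.04), ERBB2 (0.01) and ERBB3 (0.22) did not pass. Of these 11, 3 rose and 4 fell in the YTHDF1 KO background, where 12.5% of all genes rose and 10.9% fell. Of 27 AP-1 and immediate early genes 11 rose, among them FOSL1 (1.502) and the phosphatases DUSP5 (1.15) and DUSP6 (1.23), while FOS (0.27), JUN (-0.21) and EGR1 (0.23) did not pass. FOSL1 had -0.57 in the YTHDF1 KO background (adjusted p = 0.0720; adjusted p of the difference 6.61e-04).

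Of 23 members of the TGF-beta pathway 12 fell and 3 rose. TGFBR2 went from 206, 219 and 223 CPM to 125, 126 and 129 CPM (log2 fold change -0.77, SE 0.04, adjusted p = 4.50e-10), SMAD2 fell by 0.81, and TGFBR1 on chromosome 9 fell by 1.15. INHBA, a subunit of activin, rose from 0.350, 0.155 and 0.251 CPM to 1.51, 2.44 and 2.07 CPM (log2 fold change 2.99, SE 0.34, adjusted p = 1.66e-06). Of 17 genes of YAP, TAZ and their targets 4 rose and 4 fell (23.5% each), near the 22.1% and 23.0% of all genes tested. ANKRD1 went from 2.10, 2.21 and 3.08 CPM to 22.4, 39.8 and 25.1 CPM (log2 fold change 3.58, SE 0.30, adjusted p = 9.53e-11), CCN2 fell by 0.75 and CCN1 (0.03) did not pass.

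Basement membrane genes rose as a group, 15 of 20 with 2 lower and a median of 0.74. LAMA4, a laminin chain, went from 7.12, 7.28 and 7.98 CPM to 51.6, 48.4 and 44.1 CPM (log2 fold change 2.69, SE 0.08, adjusted p = 6.27e-16). NID2, nidogen 2, went from 10.2, 11.2 and 9.05 CPM to 48.7, 36.8 and 44.0 CPM (log2 fold change 2.08, SE 0.15, adjusted p = 3.49e-13), and COL4A5, a collagen IV chain, from 6.90, 9.27 and 7.98 CPM to 30.7, 30.2 and 35.2 CPM (log2 fold change 1.99, SE 0.14, adjusted p = 1.40e-13). Each siARID1A library was more than 3-fold above each WT library for these genes. The laminin chains LAMB3 and LAMA3 rose by 1.32 and 0.90. AGRN and LAMB2 fell. Of 16 integrin subunits, the receptors for these proteins, 6 rose and 2 fell, and without the second WT library 1 fell.

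Of 25 keratins and junction genes 10 rose and 6 fell, the share that fell (24%) being near the 23.0% of all genes tested. CDH1, E-cadherin, was at 102.6, 102.2 and 106.6 CPM in WT and 179.6, 152.8 and 179.3 CPM in siARID1A (log2 fold change 0.72). CLDN1, a claudin, went from 80.0, 85.4 and 102 CPM to 182, 226 and 189.5 CPM (log2 fold change 1.16, SE 0.14, adjusted p = 7.73e-11), and EPCAM from 3.67, 3.07 and 3.80 CPM to 8.43, 6.27 and 9.73 CPM (log2 fold change 1.22, SE 0.21, adjusted p = 1.49e-04). Of 19 mesenchymal transition genes 5 rose (26.3%) and 6 fell (31.6%), against 22.1% and 23.0% of all genes tested. By more than 1 on the log2 scale 5 rose and 4 fell, where 8.19% and 3.7% of all genes did. CDH2, N-cadherin, went from 84.0, 85.2 and 85.4 CPM to 35.0, 28.4 and 28.3 CPM (log2 fold change -1.47, SE 0.10, adjusted p = 1.09e-11), while FBN1, fibrillin 1, went from 28.9, 27.6 and 24.5 CPM to 86.9, 88.4 and 76.4 CPM (log2 fold change 1.63, SE 0.10, adjusted p = 7.71e-13). VIM (-0.03) and FN1 (-0.23) did not pass. TNC on chromosome 9, a matrix protein, fell by 3.73, and PRRX1, a mesenchymal transcription factor, had 0 counts in WT and 40 in siARID1A, at least 15.8-fold higher.

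Among secreted mucins MUC5B and MUC5AC fell and among membrane mucins MUC13 rose. MUC5AC went from 5.65, 6.81 and 5.28 CPM to 0.786, 0.815 and 0.650 CPM (log2 fold change -2.98, SE 0.14, adjusted p = 2.87e-11), and MUC13 from 17.1, 17.3 and 15.9 CPM to 65.5, 54.1 and 83.0 CPM (log2 fold change 2.01, SE 0.18, adjusted p = 4.23e-11). MUC13 also rose in the YTHDF1 KO background, from 22.02, 20.9 and 17.4 CPM to 87.6, 85.1 and 92.8 CPM (log2 fold change 2.13, SE 0.11, adjusted p = 5.00e-11), whereas MUC5AC had -0.21 there (adjusted p = 0.4000). MUC5B was at 25.4, 22.9 and 19.5 CPM in WT, 1.33, 0.376 and 1.63 CPM in siARID1A and 4.11, 2.61 and 3.26 CPM in YTHDF1 KO. Of 15 lung and endoderm lineage genes 8 rose and 4 fell: the hepatic and gut factor HNF4A went from 141, 134 and 112 CPM to 78.3, 63.8 and 70.2 CPM (log2 fold change -0.86, SE 0.13, adjusted p = 1.23e-08), and the pioneer factor FOXA1 from 10.3, 9.91 and 10.6 CPM to 22.6, 17.4 and 22.9 CPM (log2 fold change 1.03, SE 0.13, adjusted p = 2.75e-07). Of 27 complement and coagulation genes 13 rose and 5 fell. CD55, which protects cells from complement, went from 48.0, 53.6 and 63.4 CPM to 213, 246 and 256 CPM (log2 fold change 2.12, SE 0.14, adjusted p = 4.04e-14) and rose by 1.70 in the YTHDF1 KO background.

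Of 28 sterol and fatty acid synthesis genes 17 fell and 4 rose (median -0.31). HMGCS1, an enzyme of cholesterol synthesis, rose by 0.53. In glycolysis 6 of 22 rose (27.3%) and 7 fell (31.8%), near the 22.1% and 23.0% of all genes tested. HK1, a hexokinase, went from 74.3, 58.6 and 64.5 CPM to 189, 219 and 192 CPM (log2 fold change 1.602, SE 0.12, adjusted p = 1.03e-13), and SLC2A1, the glucose transporter, fell by 0.50. Histone deacetylases moved in both directions. HDAC9 went from 0.4998, 0.531 and 0.628 CPM to 4.05, 7.14 and 4.88 CPM (log2 fold change 3.28, SE 0.26, adjusted p = 2.10e-10) and HDAC5 from 6.95, 7.14 and 5.40 CPM to 21.6, 16.2 and 25.7 CPM (log2 fold change 1.70, SE 0.23, adjusted p = 9.15e-10), both of class IIa, while HDAC1, HDAC2 and HDAC3 of class I fell by 0.28, 0.36 and 0.26. HDAC4 and HDAC7, the remaining class IIa members, fell by 0.38 and 0.25, the call of HDAC7 being lost in 6 of 20 alternative settings. EZH2, the Polycomb methyltransferase known to oppose SWI/SNF, went from 66.2, 74.8 and 60.2 CPM to 39.5, 41.5 and 36.8 CPM (log2 fold change -0.77, SE 0.10, adjusted p = 3.25e-08), and SUZ12 (-0.03) and EED (0.09) did not pass.

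In the BCL2 family, which sets the threshold of apoptosis, 5 of 16 rose and 5 fell, 31.2% each, against 22.1% and 23.0% of all genes tested. BCL2L11, the BH3-only protein BIM, went from 47.7, 58.8 and 45.8 CPM to 20.9, 15.4 and 21.7 CPM (log2 fold change -1.39, SE 0.19, adjusted p = 2.19e-08), and was at 8.62, 7.84 and 9.63 CPM in YTHDF1 KO. MCL1 (0.07) did not pass. Of 21 writers, erasers and readers of N6-methyladenosine 11 fell and IGF2BP1 rose, the latter a call lost in 6 of 20 alternative settings. The changes were small: METTL3, the catalytic writer, went from 69.8, 74.3 and 66.5 CPM to 55.3, 54.9 and 48.1 CPM (log2 fold change -0.41, SE 0.08, adjusted p = 4.71e-05).

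The same silencing changed fewer genes, and mostly by less, in YTHDF1 KO cells. In the combined group against YTHDF1 KO 2315 genes rose (12.5%) and 2016 fell (10.9%), of which 636 rose (3.43%) and 154 fell (0.831%) by more than 1. Without the first library of the combined group 1303 fell. This comparison shares no library with siARID1A against WT. Of the 4100 genes that rose in siARID1A, 1547 also rose there, which is 37.7% of the first set and 66.8% of the second, and 100 fell. Of the 4268 that fell, 1458 also fell (34.2% and 72.3%) and 101 rose. In all 4331 genes were called (23.4%), and 790 of them by more than 1 (4.26%), against 8368 (45.2%) and 2203 (11.9%) in siARID1A against WT. The change with silencing itself differed between the backgrounds for 3167 genes (17.1%), and by more than 1 for 885 (4.78%), of which 358 (1.93%) were more positive in YTHDF1 KO cells and 527 (2.84%) more negative. Of 58 lists with at least 10 tested members, 49 had a median nearer 0 in YTHDF1 KO cells. Interferon effectors, MHC class I genes and complement and coagulation genes were among the exceptions, with medians of 1.32, 0.80 and 0.67 against 1.07, 0.63 and 0.30. ARID1A itself fell by 1.56 there and by 1.95 in WT cells, a difference of 0.38 (adjusted p = 0.0278). How much of the smaller response goes with the weaker silencing, or with a difference between the WT culture and the others, was not tested.

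**Figure D5:**
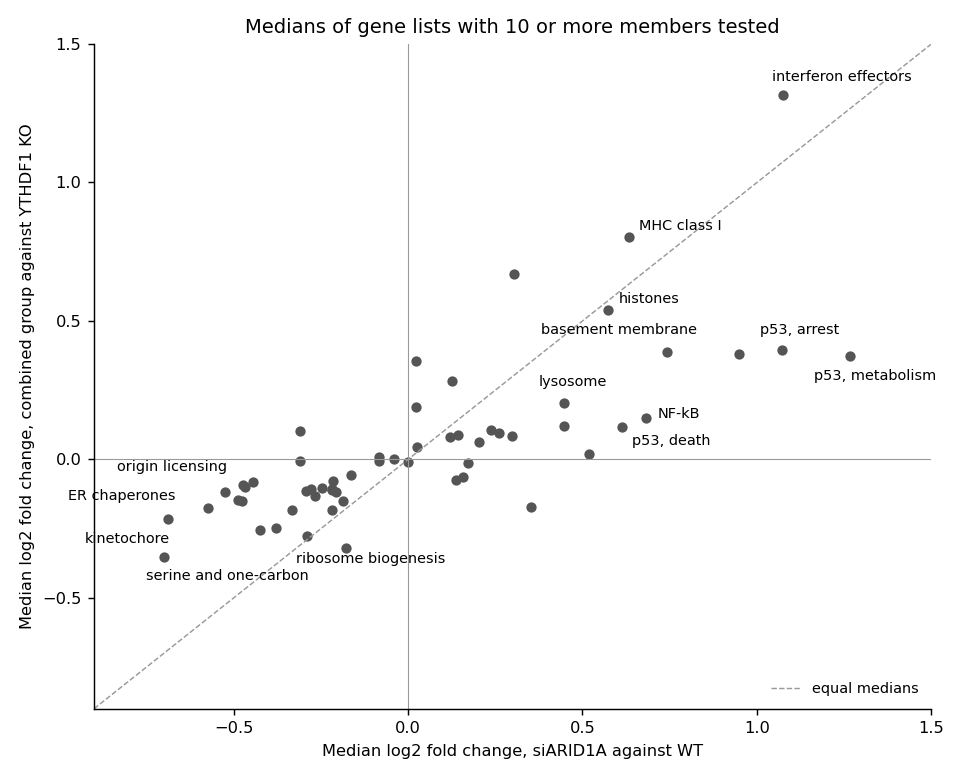
Median log2 fold change of 58 gene lists in siARID1A against WT (horizontal) and in the combined group against YTHDF1 KO (vertical), with a dashed line where the medians are equal and names at selected lists. Most lists lie nearer 0 on the vertical axis, and interferon effectors and MHC class I lie above the line at 1.32 and 0.80.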

How the data were processed

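The libraries were made from total RNA with a TruSeq stranded kit, per the labels' protocols. The submitters' processing notes name Trim Galore 0.6.6, STAR 2.7.0d, featureCounts 2.0.1, edgeR 3.32.1 and build GRCh38. Which annotation release was counted, and whether strand was used, is not given in the sources used here, so a gene and an overlapping antisense gene may share reads. The authors deposited whole-number read counts per gene for all 12 libraries, and these counts were used as deposited.

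Genes were tested with edgeR 4.0.16 in R 4.3.3: filterByExpr, trimmed mean of M-values scaling, and a robust quasi-likelihood fit of all 12 libraries with a term for each of the 4 groups and Benjamini-Hochberg adjustment over all 18524 genes, called at 0.05. Fold changes came from that fit. A prior count of 2 was added only for the log2 CPM behind the standard errors. For genes of few counts an SE is therefore not on the same scale as its fold change. The biological coefficient of variation was 9.44%. The difference between backgrounds is the difference of the 2 fold changes in that fit. The procedure was tested on simulated data. Gene names came from a table of gene symbols, and positions from GENCODE 29 on GRCh38. Of 1342 genes in the 67 lists 1340 were matched.

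The members and lists were chosen with earlier results of these data known. Genes given with library values are ARID1A, ARID1B, YTHDF1 and 12 chosen genes, the 15 largest rises and falls, the 10 most abundant called genes with a change beyond 1, the 5 largest differences between backgrounds each way, and up to 6 members of each list with the largest changes (every member of lists of 8 or fewer). Other members, among them KRT8, CDH1, MX2, CCL5 and PRRX1, were named after their values were seen. Totals of 32380546 counts or more make counting error weigh most on genes near or under 1 CPM. Alternatives were other scaling, filters, DESeq2 1.42.0, the 6 libraries alone, a replicate block, leaving out each library, and leaving out chromosome 9. A few genes are not reported here.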

Additional observations from a re-analysis of the deposited data

Results flagged for a closer look

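For the 5 genes given here the test of the difference between backgrounds passed, and silencing had opposite directions in WT cells and in YTHDF1 KO cells with a log2 fold change over 0.5 in size in both. Other genes with a smaller change in 1 background, WARS1 (-0.66 and 0.39) among them, are not listed. KCNK3, a potassium channel, had a log2 fold change of -2.62 in siARID1A against WT and 1.10 in the combined group against YTHDF1 KO, a difference of 3.72 (adjusted p = 5.46e-10). It averaged 18.2 CPM in WT and 2.94 CPM in siARID1A, but only 0.958 CPM in YTHDF1 KO and 2.05 CPM in the combined group. For CX3CL1, the chemokine fractalkine, the log2 fold changes were -1.57 and 1.24 with a difference of 2.805 (adjusted p = 4.00e-04). ASS1 on chromosome 9, argininosuccinate synthase, had -1.87 and 0.70 with a difference of 2.57 (adjusted p = 8.46e-10). EREG, the ligand epiregulin, had 0.84 and -0.995 with a difference of -1.84 (adjusted p = 1.27e-05). CAV1, caveolin 1, had 0.955 and -0.505 with a difference of -1.46 (adjusted p = 2.78e-10). The adjusted p-values are from edgeR's quasi-likelihood test.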

How the results depend on the processing

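Over all alternatives 3551 to 4683 genes rose and 3512 to 4249 fell in siARID1A against WT, and no called member of a list changed sign. The balance of calls turned: 4100 rose and 4268 fell in the analysis reported, but 4445 and 4071 with DESeq2, 4346 and 3982 with relative log expression scaling and 4683 and 3512 with library totals. Without the second WT library 10 of 13 mitochondrially encoded transcripts fell, against 0 with it. Leaving out single libraries gave 3551 to 4080 higher and 3634 to 4249 lower. The share of called genes that rose was 49.0% with trimmed mean scaling, 52.2% with relative log expression scaling and 57.1% with library totals, which put the median of all genes at 0.05. In the combined group against YTHDF1 KO, leaving out single libraries gave 1303 to 2493 genes lower, the lowest without replicate 1 of the combined group, and the cause was not tested. The replicate numbers did not pair the samples (correlations of same-numbered deviations 0.03, -0.02 and 0.03), and with the replicate block 4022 genes rose and 4144 fell. Counts of list members moved by more than 1.5 times mainly where under 4 members were called. Among larger counts, for example, library totals gave 7 end joining genes lower and 11 heat shock genes higher in place of 11 and 7, and without the third siARID1A library 7 translocon genes rose in place of 12. Calls of ORC4, SMARCA2, ERO1B, CHEK2, HDAC7, IGF2BP1, SAMD9 and JAK2, among others, were lost in 5 or more settings. Low counts limit the precision of MX2, CCL5, CGAS and PRRX1.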
